A study of Mus musculus with 2 samples.

Results

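The Fc receptor genes Fcgr1, Fcgr2b, Fcgr3, Fcgr4 and Fcer1g were followed in single macrophages and microglia from the optic nerve of mice. They were chosen by name, as the receptors for immunoglobulin G and their shared signalling chain, and are 5 of the 31053 gene rows of the deposited table. Wildtype 129S1/SvlmJ mice of both sexes underwent optic nerve crush when 8 weeks old, and cells of the dissected, digested and triturated nerve were taken 2 weeks later, at 10 weeks. Uninjured nerves of the same strain, genotype and age gave the control cells, although a sample label also reads P56. Each condition was 1 droplet library of the 10x 3′ chemistry, with 727 injured and 51 uninjured cells, so the conditions have no replicates, no test was made and no p-value is given. The sources used here do not give the number of nerves or mice pooled, nor the criteria by which macrophages and microglia were picked.

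Fc gamma receptors bind the constant part of IgG antibodies and let macrophages take up or kill what antibodies have coated. The activating receptors, encoded by Fcgr1, Fcgr3 and Fcgr4, do not signal alone: they pair with the Fc receptor gamma chain encoded by Fcer1g, whose ITAM motif recruits the kinase Syk. Fcgr2b encodes the inhibitory receptor, which carries its own ITIM motif and recruits phosphatases such as SHIP1 (Inpp5d), so the balance of Fcgr2b to the activating genes is often used to describe how readily a macrophage responds to immune complexes. In the nervous system these receptors are expressed by microglia and macrophages.

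Values are counts of unique molecular identifiers (UMIs, tags that mark single captured transcripts), summed over the cells of a library and scaled to CPM, counts per 1000000 UMIs. Every interval is an exact 95% interval and covers counting error only, not the variation between mice. The 3′ chemistry counts transcripts near their ends, so a gene is compared between groups of cells, and the sums over receptor genes are sums of captured UMIs. The injured library held 3697992 UMIs with a median of 1123 per cell, the uninjured library 87499 with a median of 888, and the libraries shared 0 cell barcodes. A gene at 0 could have a level of up to 3 counts, which is 0.811 CPM for the injured library and 34.3 CPM for the uninjured one. One uninjured cell took 10194 of its 11100 UMIs from haemoglobin genes, and the deep class is also given without it. Without it the log2 ratios over all cells were 0.80 for Fcgr2b, 0.76 for Fcer1g, 0.81 for Fcgr4, -0.23 for Fcgr3 and -0.29 for Fcgr1, each called as before. All 6 microglia and all 8 macrophage markers had UMIs in both libraries. The microglia markers summed to 5199 CPM in the injured library against 8057 CPM, and the macrophage markers to 30864 against 14274 CPM.

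Of the 5 genes, 4 lie on chromosome 1 (coordinates are GENCODE vM21, build mm10). Fcgr2b (chr1:170958617-170976547, minus strand), Fcgr4 (chr1:171018920-171029761, plus strand) and Fcgr3 (chr1:171051174-171064935, minus strand) share a stretch of 106 kb. Fcer1g (chr1:171229572-171234365, minus strand) begins 165 kb past Fcgr3, and Fcgr1 lies apart on chromosome 3 (chr3:96282909-96293969, minus strand). The inhibitory and the activating neighbour are close copies in their outer part. The coding sequences of Fcgr2b and Fcgr3 were 87.8% identical over 756 aligned bases, against 65.8 to 69.8% for the other pairs of receptor genes, and within them a block of 509 bases was 96.5% identical. A stretch of 120 bases of that block is shown because it bears on whether reads of the genes can be told apart. It is coding sequence of GENCODE vM21 transcripts, 5′ to 3′, numbered from 1 at the start codon, with the only base that differs in capitals.
Fcgr2b, bases 320 to 439: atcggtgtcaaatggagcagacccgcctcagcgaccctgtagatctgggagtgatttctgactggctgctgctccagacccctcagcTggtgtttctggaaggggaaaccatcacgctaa
Fcgr3, bases 305 to 424: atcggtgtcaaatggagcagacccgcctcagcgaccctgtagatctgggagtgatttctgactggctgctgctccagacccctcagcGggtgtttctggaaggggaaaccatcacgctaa

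The likeness did not reach the transcript ends that the 3′ chemistry reads. In the last 500 bases of the annotated coding transcripts, 0 of 451 windows of 50 bases occurred in another gene, except in the shortest Fcgr2b isoform, where 33 windows (7.32%) also occurred in Fcgr3. The antisense gene Gm38204 overlaps Fcgr2b by 3175 bases and had 0 UMIs in both libraries; whether the authors counted by strand is not stated.

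The opposite signalling roles are encoded in short stretches of these transcripts, shown to give the basis for the words activating and inhibitory; the UMI counts below are of whole genes. Fcer1g carries the ITAM in bases 178 to 252, with its pair of tyrosine codons in capitals, and Fcgr2b carries the ITIM in bases 934 to 981, with its tyrosine codon in capitals.
Fcer1g, ITAM: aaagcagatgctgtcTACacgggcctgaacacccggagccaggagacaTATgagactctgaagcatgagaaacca
Fcgr2b, ITIM: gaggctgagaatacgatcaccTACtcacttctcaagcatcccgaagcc

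The region around the transcription start is shown for all 5 genes because their levels differed between classes of cells in unlike ways. The windows run from 100 bases before to 20 bases after the RefSeq start (RefSeq, build GRCm38.p6), each on its gene's strand. Capitals mark GAGGAA or its reverse complement TTCCTC, a purine-rich word chosen after the sequences had been read.
Fcgr1, chr3:96293950-96294069, minus strand: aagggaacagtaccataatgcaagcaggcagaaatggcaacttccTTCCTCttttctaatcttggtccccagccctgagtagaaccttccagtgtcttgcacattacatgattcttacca
Fcgr3, chr1:171059384-171059503, minus strand: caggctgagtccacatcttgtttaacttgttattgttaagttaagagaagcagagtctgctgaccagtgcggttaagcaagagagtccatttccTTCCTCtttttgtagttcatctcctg
Fcgr4, chr1:171018826-171018945, plus strand: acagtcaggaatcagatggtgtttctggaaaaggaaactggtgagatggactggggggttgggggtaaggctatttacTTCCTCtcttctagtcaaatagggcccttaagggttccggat
Fcer1g, chr1:171234330-171234449, minus strand: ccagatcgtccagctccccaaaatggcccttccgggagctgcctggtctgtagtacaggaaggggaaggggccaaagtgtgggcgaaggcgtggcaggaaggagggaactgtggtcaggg
Fcgr2b, chr1:170976052-170976171, minus strand: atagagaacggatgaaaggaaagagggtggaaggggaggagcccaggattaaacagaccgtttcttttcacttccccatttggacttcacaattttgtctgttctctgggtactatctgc

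The word was present once in each of the 3 activating genes, beginning 55 bases before the start in Fcgr1, 6 in Fcgr3 and 22 in Fcgr4. Fcgr3 has another RefSeq start, whose window is not shown, and the word begins 15 bases before that start. These letters were absent from the windows of Fcer1g and Fcgr2b. Of 32851 windows of the same length, 12.0% held GAGGAA on either strand. Because the word was chosen from the windows of these genes, its presence in them cannot be weighed against that share. The STAT-type word TTCNNNGAA, searched on both strands, was in 3.14% of those windows and in none of the 5. Such matches describe letters only.

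Fcgr1 encodes the high-affinity IgG receptor. It had 665 UMIs in 196 of 727 injured cells, a level of 180 CPM (166 to 194), and 17 UMIs in 14 of 51 uninjured cells, 194 CPM (113 to 311). The injured to uninjured ratio of levels was 0.926 (0.574 to 1.60), so the summed levels were not distinguishable beyond counting error. The values lay further apart where shallow cells weighed more. With cells weighted equally the levels were 130 and 236 CPM (log2 ratio -0.82). In cells under 5000 UMIs the log2 ratio was -0.91, and in cells thinned to 500 UMIs -0.79. These log2 ratios all passed the 1.5-fold call defined below. The thinned ratio was 0.562 (0.241 to 1.60) on 6 uninjured UMIs, an interval that includes 1. Fcgr1 ranked 643rd by UMIs among 14283 detected genes of the injured library and 557th of 8110 in the uninjured library.

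Fcgr3, the low-affinity activating receptor of resting myeloid cells, was the receptor gene with most UMIs in both libraries. It had 2308 UMIs in 382 injured cells (624 CPM, 599 to 650) and 56 UMIs in 27 uninjured cells (640 CPM, 483 to 831). The ratio was 0.975 (0.748 to 1.29), and the injured interval lay within the uninjured one.

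Fcgr4, an activating receptor that prefers IgG2 antibodies, was scarce. It had 113 UMIs spread over 78 injured cells, at most 4 in a cell, which gave 30.6 CPM (25.2 to 36.7). The uninjured library had 1 UMI, 11.4 CPM (0.289 to 63.7), and the ratio of 2.67 carried an interval from 0.470 to 107. A difference was not detectable at this depth, and the 1.5-fold call was lost when 50 CPM were added in place of 10 CPM (log2 ratio 0.39).

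Fcer1g, the gamma chain, was the most abundant of the 5 by UMIs and ranked 48th of all genes in injured cells and 112th in uninjured cells. It had 9438 UMIs in 563 injured cells (2552 CPM, 2501 to 2604) and 115 UMIs in 29 uninjured cells (1314 CPM, 1085 to 1578). The injured level was 1.94 times the uninjured one (1.62 to 2.35), and the intervals of the levels did not overlap. In cells under 5000 UMIs alone the log2 ratio was 0.55 and in thinned cells 0.58, just below the 1.5-fold call defined below.

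Fcgr2b, the inhibitory receptor, had 1126 UMIs in 255 injured cells (304 CPM, 287 to 323) and 13 UMIs in 9 uninjured cells (149 CPM, 79.1 to 254). The injured level was 2.05 times the uninjured one (1.19 to 3.86), with intervals of the levels that did not overlap. This difference rested on deeply read cells: with every cell weighted equally the levels were 234 and 160 CPM, a log2 ratio of 0.52, and in cells under 5000 UMIs the log2 ratio was 0.26. Neither reaches 1.5-fold. No single cell carried it, since the highest injured cell had 37 of the 1126 UMIs and the highest uninjured cell 3 of the 13.

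A gene was called higher or lower when its ratio passed 1.5-fold after 10 CPM were added to both levels, a scale that understates changes of scarce genes. By that rule 3 of the 5 genes, Fcgr2b (log2 ratio 0.99), Fcer1g (0.95) and Fcgr4 (0.92), were higher in the injured library and 0 were lower. Of the 4021 genes with UMIs in 10% or more of a library's cells, 32.8% were called higher and 21.8% lower, so a call of this size was common. The log2 ratios of Fcgr3 (-0.04) and Fcgr1 (-0.11) lay under the median of all compared genes, 0.17, and those of the 3 called genes lay at the 78.3rd to 80.2nd percentile. Centred on that median, 1091 genes were called higher and 1089 lower in place of 1317 and 876, and the directions of the 5 genes did not change. The Fcgr4 call rests on 1 uninjured UMI.

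**Figure D1:**
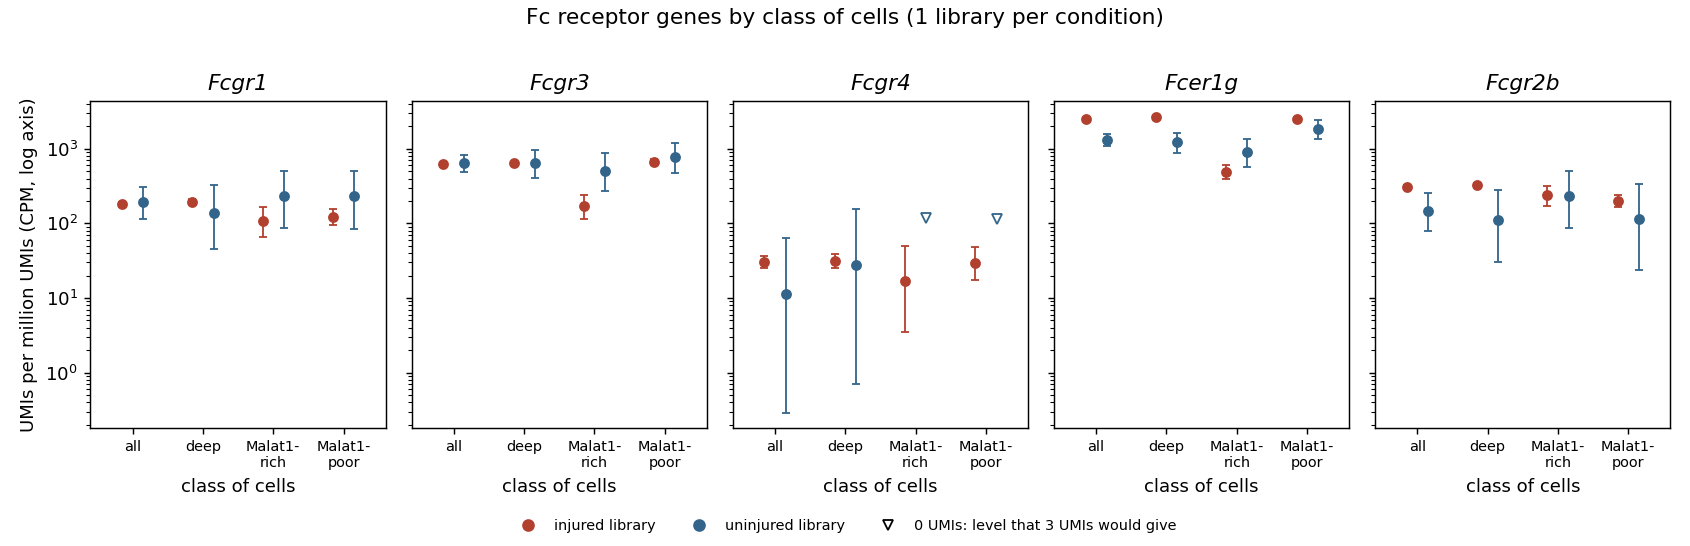
Level of each gene (CPM, log axis) in all cells, deep cells, Malat1-rich and Malat1-poor shallow cells, with exact 95% counting intervals; red is the injured library, blue the uninjured library, and open triangles mark the level that 3 UMIs would give where none was found. Fcer1g and Fcgr3 drop to 488 and 170 CPM in Malat1-rich injured cells, while Fcgr2b stays at 238 CPM there.

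The share of cells with a UMI followed depth. Fcer1g was seen in 77.4% (74.2 to 80.4) of the injured and 56.9% (42.2 to 70.7) of the uninjured cells, Fcgr3 in 52.5% and 52.9%, Fcgr2b in 35.1% and 17.6%, Fcgr1 in 27.0% and 27.5%, and Fcgr4 in 10.7% and 1.96%. Drawing 500 UMIs from each cell, which left out 0 injured and 2 uninjured cells, changed the picture. The share then was 57.8% (54.1 to 61.4) against 46.9% (32.5 to 61.7) for Fcer1g and 26.7% (23.5 to 30.1) against 40.8% (27.0 to 55.8) for Fcgr3. Fcgr2b was then in 10.5% (8.33 to 12.9) of injured against 12.2% (4.63 to 24.8) of uninjured cells, intervals that overlapped. Fcgr1 was in 6.19% and 12.2%, and Fcgr4 in 1.51% and 0%, where 0 of 49 cells allows up to 7.25%. This was a single draw. It held 6 uninjured Fcgr2b UMIs where 4.08 were the average for such a draw, and 25 uninjured Fcgr3 UMIs where 17.0 were the average. The ratio of average levels over the cells kept was 1.40 for Fcgr2b and 0.860 for Fcgr3, so neither the drawn Fcgr3 gap nor the drawn Fcgr2b ratio is read as a difference. The ratio of drawn Fcgr2b UMIs per cell was 0.966 (0.426 to 2.71).

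Free RNA in the droplets can give UMIs to cells that do not express a gene. The cells taken as unlikely to express these receptors were 5 injured cells, at a median of 5387 UMIs (834 to 6332). In each of them at least 2 genes of the T cell receptor and Cd3 chains had UMIs. That they lack the receptors was assumed and not tested. None of the 5 genes had a UMI in any of them, which allows a share of up to 52.2%. The 3 of these cells that were deep had 15 UMIs of Apoe, against a median of 2004 per cell in the other deep injured cells, and 0 of Tyrobp. Whether the Apoe UMIs came from free RNA was not tested. RNA of oligodendrocytes, the myelin-forming cells of the nerve, was far more widespread. Its 5 markers were in 627 injured cells and in all 51 uninjured cells, at 1098 and 8034 CPM. They ranged from 273 CPM in deep injured cells and 2588 and 4919 CPM in Malat1-rich and Malat1-poor injured cells to 17611 CPM in Malat1-poor uninjured cells. Their part in the receptor levels was not tested.

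**Figure D2:**
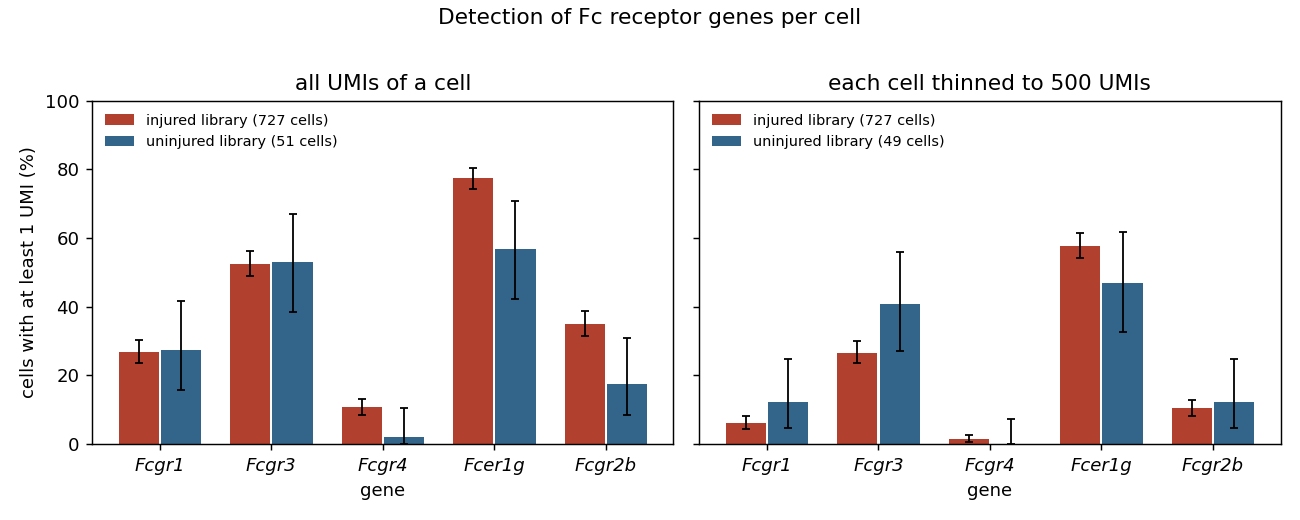
Percent of cells with at least 1 UMI of each gene, from all UMIs (left) and after drawing 500 UMIs per cell (right); bars are the injured (red) and uninjured (blue) library and black lines exact 95% intervals. In this draw Fcgr2b stands at 10.5% of injured and 12.2% of uninjured cells.

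The inhibitory share, Fcgr2b UMIs over the UMIs of Fcgr1, Fcgr2b, Fcgr3 and Fcgr4, was 26.7% in the injured library (25.4 to 28.1; 1126 of 4212 UMIs). It was 14.9% in the uninjured library (8.20 to 24.2; 13 of 87 UMIs). The odds of a receptor UMI being Fcgr2b were 2.08 times higher in the injured library (1.14 to 4.10), an interval that treats UMIs as independent. The activating genes summed to 835 CPM (805 to 864) after injury against 846 CPM (664 to 1062) without it, so in summed UMIs the activating sum was alike and the Fcgr2b level differed. With cells weighted equally the activating sum was 752 against 905 CPM, and in cells under 5000 UMIs 698 against 873 CPM. Counted one against the other, the uninjured cells had 0.176 Fcgr2b UMIs per activating UMI and the injured cells 0.365. The gamma chain followed another ratio: Fcer1g UMIs per receptor UMI were 2.24 (2.16 to 2.32) in injured and 1.32 (0.992 to 1.77) in uninjured cells.

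Depth classes of injured cells gave the share a shallow course with 1 step. It was 25% (14.0 to 38.9) under 600 UMIs, 21.1% (15.1 to 28.2) from 600 to 1000, 23.7% (19.9 to 27.8) from 1000 to 5000, 33.5% (29.6 to 37.6) from 5000 to 15000 and 26.3% (24.7 to 27.9) over 15000. The class from 5000 to 15000 UMIs, 45 cells, stood above both neighbours with intervals that did not overlap theirs. These intervals treat UMIs as independent, and 1 cell held 22 of the 188 Fcgr2b UMIs of the class. In that class Fcgr2b reached 444 CPM and Fcer1g had its lowest value per receptor UMI of the depth classes, 1.57 (1.41 to 1.75), against 2.37 (2.27 to 2.48) in the deepest cells. Uninjured cells gave 0 of 4 UMIs under 600 UMIs per cell, then 16.7% (3.58 to 41.4), 18.8% (7.21 to 36.4) and 12.1% (3.40 to 28.2), and held no cell over 15000 UMIs. Over the classes that both libraries filled, the intervals overlapped in each class under 5000 UMIs, and from 5000 to 15000 UMIs the uninjured share lay under the injured one without overlap.

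Cells were next sorted by depth and by Malat1, an RNA retained in the nucleus. Deep cells had 5000 UMIs or more, and shallower cells were called Malat1-rich where Malat1 gave at least 1% of their UMIs and Malat1-poor where it gave less. The injured library held 144 deep, 91 Malat1-rich and 492 Malat1-poor cells, and the uninjured library 4, 17 and 30. The classes differed in RNA quality too. The median share of mitochondrial UMIs was 10.7% in Malat1-rich and 0.503% in Malat1-poor injured cells, against 3.11% and 8.11% in uninjured cells, and its part in the results was not tested.

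The inhibitory share was highest in Malat1-rich injured cells. It was 44.7% there (34.4 to 55.3; 42 of 94 UMIs), 27.4% in deep (25.9 to 28.9; 969 of 3535) and 19.7% in Malat1-poor injured cells (16.6 to 23.2; 115 of 583), and the 3 intervals did not overlap. The odds of Fcgr2b among receptor UMIs were 3.28 times higher in Malat1-rich than in Malat1-poor injured cells (2.02 to 5.30), and 1.54 times higher in deep than in Malat1-poor cells (1.23 to 1.93). Uninjured cells had the same order of classes on the values, 24.0% in Malat1-rich (6 of 25), 12.1% in deep (4 of 33) and 10.3% in Malat1-poor cells (3 of 29), with intervals that overlapped between all 3. Within a class, the odds ratio of injured to uninjured cells was 2.54 (0.874 to 8.49) in Malat1-rich, 2.74 (0.958 to 10.7) in deep and 2.13 (0.635 to 11.2) in Malat1-poor cells. Each value lay near that of all cells, and each interval included 1.

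**Figure D3:**
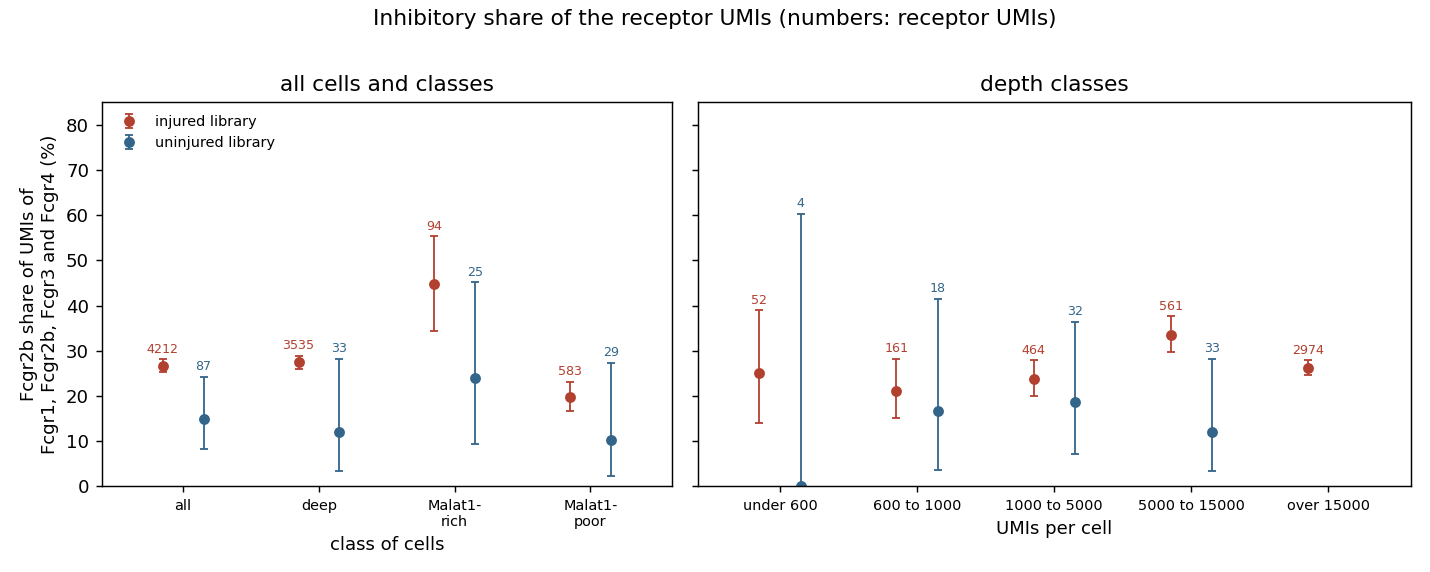
Fcgr2b as percent of the UMIs of Fcgr1, Fcgr2b, Fcgr3 and Fcgr4 by class of cells (left) and by UMIs per cell (right), with exact 95% intervals; red is the injured and blue the uninjured library, and the small numbers count receptor UMIs. The Malat1-rich injured cells stand highest at 44.7%, and each uninjured class below the whole library rests on 4 to 33 receptor UMIs.

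The high share in Malat1-rich injured cells went with low Fcgr3 and not with high Fcgr2b. Fcgr3 was at 170 CPM (115 to 243) there and at 670 CPM (604 to 741) in Malat1-poor cells, 3.93-fold lower (2.71 to 5.91). Fcer1g was at 488 CPM (390 to 603) and 2491 CPM (2363 to 2624), 5.11-fold lower (4.10 to 6.42). Fcgr2b was at 238 CPM (172 to 322) and 202 CPM (167 to 243), a ratio of 1.18 (0.807 to 1.69). Fcgr1 was at 108 and 123 CPM and Fcgr4 at 17.0 and 29.9 CPM, with overlapping intervals. Summed, the activating genes were 2.79-fold lower in Malat1-rich cells (2.09 to 3.79), of which Fcgr3 is the largest part.

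By the 1.5-fold rule 2 of the 4 genes compared there (Fcgr4 was seen too rarely) were lower and 0 higher. Of 2860 genes compared, 58.7% were higher and 26.6% lower in Malat1-rich cells, and the median log2 ratio was 1.04. Fcer1g (-2.33) lay at the 2.87th percentile and Fcgr3 (-1.92) at the 8.08th, whereas Fcgr2b (0.23) and Fcgr1 (-0.18) lay at the 35.9th and 31.0th percentile, so relative to that median all 4 were low. Macrophage markers were also lower in Malat1-rich injured cells, 11077 against 23229 CPM, as were microglia markers, 2406 against 4673 CPM. Markers of some other cells were higher there: the neutrophil list was at 375 against 116 CPM, T cells at 210 against 1.76 CPM, monocytes at 170 against 19.3 CPM and dendritic cells at 45.4 against 3.52 CPM. Of the 66 neutrophil list UMIs in Malat1-rich injured cells, 45 were Csf3r, a gene also expressed by microglia. Oligodendrocyte markers were lower, 2588 against 4919 CPM, and the B cell, astrocyte, fibroblast and erythroid lists had overlapping intervals. In the 91 cells, 2 or more UMIs of a list were in 13 cells for neutrophils, 5 for monocytes and 2 each for T cells and dendritic cells. The part of these markers in the receptor levels was not tested.

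In uninjured cells the gamma chain differed in the same direction, by less. Fcer1g was at 898 CPM in Malat1-rich and 1850 CPM in Malat1-poor uninjured cells, 2.06-fold lower (1.23 to 3.55), although 11 of its 23 Malat1-rich UMIs came from 1 cell. Fcgr3 was at 508 and 771 CPM, 1.52-fold lower with an interval from 0.719 to 3.32. By the rule 2 of 4 genes were lower and 1, Fcgr2b on 6 and 3 UMIs, was higher, beside 20.3% and 66.3% of 3334 genes.

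The 42 Fcgr2b UMIs of the Malat1-rich injured cells were spread over 29 of 91 cells, at most 4 in a cell. Of those 29 cells, 15 had no UMI of an activating gene and 14 had one, while 20 further cells had an activating gene and no Fcgr2b. B cells also express Fcgr2b, so markers of other cells were counted beside it. Of the 29 cells, 2 had a UMI of the B cell list, led by Ighm, and 0 of the T cell list. A microglia marker was in 25 of them and a macrophage marker in 29. Among all 91 cells of the class, 8 had a UMI of the B cell list and 4 of the T cell list. Microglia markers were in 68 of the 91 and macrophage markers in 87, so these counts do not set the 29 cells apart. The neutrophil, monocyte and dendritic cell lists were not counted in the 29 cells. The defining B cell genes Cd79a, Cd79b and Ms4a1 were at 0 in this class. Without the cells that had any B or T cell gene the share was 44.4% (34.0 to 55.3; 40 of 90 UMIs). Over the whole table, Igkc was at 0 in both libraries, as were the mast cell and basophil genes Fcer1a, Ms4a2, Cpa3, Mcpt4, Tpsb2 and Mcpt8, of cells that use Fcer1g too; Kit, the last of that list, had 5 injured UMIs. Of the neutrophil list 5 of 7 genes had UMIs in the injured library, 507 in all, of which 419 were Csf3r, a gene also expressed by microglia, while Ly6g and Retnlg were at 0. The natural killer list had 15 UMIs in injured and 0 in uninjured cells.

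Deep injured cells differed from Malat1-poor ones in Fcgr2b and Fcgr1. Fcgr2b was at 328 CPM (308 to 349), 1.62-fold above Malat1-poor cells (1.34 to 1.99), and Fcgr1 at 195 CPM (179 to 212), 1.58-fold above (1.24 to 2.06). Fcgr3 at 642 CPM, Fcgr4 at 31.5 CPM and Fcer1g at 2687 CPM had ratios of 0.959, 1.05 and 1.08 to the Malat1-poor levels. By the rule 2 of 5 genes were higher and 0 lower, beside 17.2% and 4.88% of 8142 genes.

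Within classes, the comparison of the libraries rested on few uninjured UMIs. In deep cells the injured to uninjured ratio was 2.95 (1.15 to 10.8) for Fcgr2b on 4 uninjured UMIs and 2.19 (1.63 to 3.02) for Fcer1g on 44. It was 1.40 for Fcgr1, 1.00 for Fcgr3 and 1.13 for Fcgr4, and 2 of 5 genes were called higher beside 57.7% of 8564 genes, with a median log2 ratio of 0.77. One of the 4 deep uninjured cells was the haemoglobin-rich cell, which carried no UMI of these genes. Without it the Fcgr2b ratio was 2.04 (0.793 to 7.49), that of Fcer1g 1.52 (1.13 to 2.09) and that of Fcgr3 0.694 (0.461 to 1.10), beside 53.8% called higher and 28.9% lower. In Malat1-rich cells Fcgr3 was at 170 CPM after injury against 508 CPM without it, a ratio of 0.335 (0.170 to 0.701). Fcer1g had a ratio of 0.543 there (0.340 to 0.902), Fcgr1 0.460 (0.177 to 1.41, on 6 uninjured UMIs) and Fcgr2b 1.02 (0.430 to 2.93). Of the 4 genes compared, 3 were called lower, beside 46.0% of 3852 genes lower and 25.4% higher. In Malat1-poor cells the ratios were 0.532 for Fcgr1, 0.869 for Fcgr3, 1.35 (1.01 to 1.84) for Fcer1g and 1.75 (0.584 to 8.61) for Fcgr2b, of which 1 was called lower and 1 higher beside 30.6% and 32.7% of 1418 genes. Fcgr4 had 3 and 17 UMIs in the shallow injured classes and 0 in the uninjured ones, which allow up to 117 and 116 CPM, so no fold is given.

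Fcer1g thus stood above its uninjured level in deep and in Malat1-poor cells and below it in Malat1-rich cells, in summed UMIs. In deep cells, 1 of the 4 uninjured cells held 21 of the 44 UMIs. Without the haemoglobin-rich cell the deep log2 ratio of 0.60 lay at the 46.6th percentile, under the median of all compared genes, 0.72. The Malat1-poor log2 ratio of 0.43 did not pass the 1.5-fold call. Because 1 cell held 11 of the 23 uninjured Malat1-rich UMIs, the lower level there depends on that cell: with cells weighted equally Fcer1g was at 460 CPM after injury and at 494 CPM without it. For Fcgr3 in the same class equal weights gave 181 and 532 CPM, close to the summed values.

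In deep injured cells, where dropout is low, most cells carried both arms of the system. Of 144 cells, 132 had a UMI of Fcgr2b and of an activating gene, 2 of Fcgr2b only, 5 of an activating gene only and 5 of neither. Fcgr1, Fcgr2b, Fcgr3 and Fcer1g were seen together in 123 cells and all 5 genes in 57. The 3 cells with none of the 5 were also the only 3 without Fcer1g, and they carried 39, 24 and 39 UMIs of the T cell list. Among 583 shallow injured cells 107 had none of the genes, as had 14 of 51 uninjured cells.

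The share within single cells was broad. In the 129 deep injured cells with 5 or more receptor UMIs, Fcgr2b took from 2.63% to 87.5% of the cell's receptor UMIs, with a median of 23.5% and quartiles of 16.7% and 33.3%. It was over 50% in 9 cells and 0 in none. The 3 deep uninjured cells with as many receptor UMIs had 0%, 11.1% and 20%, within or below the lower part of the injured range. Fcer1g UMIs per receptor UMI ran from 0.25 to 6.80 over the same injured cells, with a median of 2.11.

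**Figure D4:**
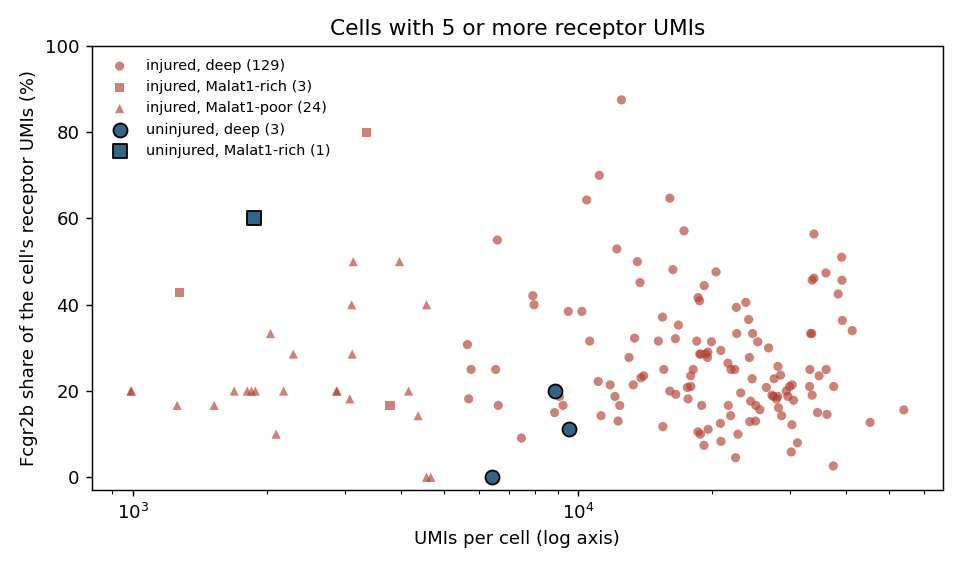
Fcgr2b as percent of the receptor UMIs of each cell with 5 or more of them, against the UMIs of the cell (log axis); red marks injured and blue uninjured cells, with circles for deep, squares for Malat1-rich and triangles for Malat1-poor cells. Deep injured cells spread from 2.63% to 87.5% around a median of 23.5%.

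Which genes varied with each receptor was described by Pearson's r of log2(CPM + 10) over the 144 deep injured cells, among 5261 genes with UMIs in 25% or more of them. Cells share library, depth and the sum to which they are scaled, so the values are descriptions. The median r of all genes with a member was between 0.03 and 0.08. Fcer1g was most like Tyrobp, the other ITAM adaptor of myeloid cells (r 0.88), then Ctss (0.77), C1qb (0.74) and C1qc (0.72). Much of this came from the 3 T-gene cells, which had 0 UMIs of Tyrobp, C1qb and C1qc and 1 of Ctss: without them r was 0.64 with Tyrobp, 0.30 with Ctss, 0.48 with C1qb and 0.46 with C1qc, and Ssr4, of the endoplasmic reticulum, led with 0.67. Fcgr3 was most like C1qc (0.76), C1qa (0.76), C1qb (0.73), the lipid carrier Apoe (0.73) and the receptor Trem2 (0.73), at 0.62 to 0.66 without those cells. Fcgr1 had the complement genes C1qb (0.60), C1qa (0.59) and C1qc (0.59), Cst3 (0.52) and Ly86 (0.51), at 0.44 to 0.53 without them. Fcgr2b had the selenium carrier Selenop (0.53), the lysosomal protease Lgmn (0.53), Fcgr3 (0.52), C1qb (0.52) and Lyz2 (0.51). Without the T-gene cells Selenop kept 0.52, and the others were between 0.35 and 0.40. Fcgr4 had no gene over 0.33 (Pirb 0.33, Gas6 0.33, Gng12 0.33, Wwp1 0.32, Mocs2 0.31), values too weak to be read at its counts.

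Among the genes themselves, Fcgr2b varied together with the activating genes Fcgr3 and Fcgr1 rather than against them. Fcgr2b and Fcgr3 had r 0.52 and Fcgr2b and Fcgr1 0.48, at 0.40 and 0.41 without the T-gene cells. For Fcgr2b these 2 genes were then the 4th and the 3rd most alike of 5228. Seen from the other side, Fcgr2b was the 37th most alike for Fcgr3 and the 12th for Fcgr1. Fcgr4, the scarce activating gene, had r 0.14 with Fcgr2b and 0.10 without the T-gene cells. Fcer1g had r 0.60 with Fcgr3, 0.50 with Fcgr1 and 0.47 with Fcgr2b, at 0.37, 0.43 and 0.26 without those cells. Depth itself had r 0.46 with Fcer1g and 0.17 to 0.27 with the receptors over the 144 cells.

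**Figure D5:**
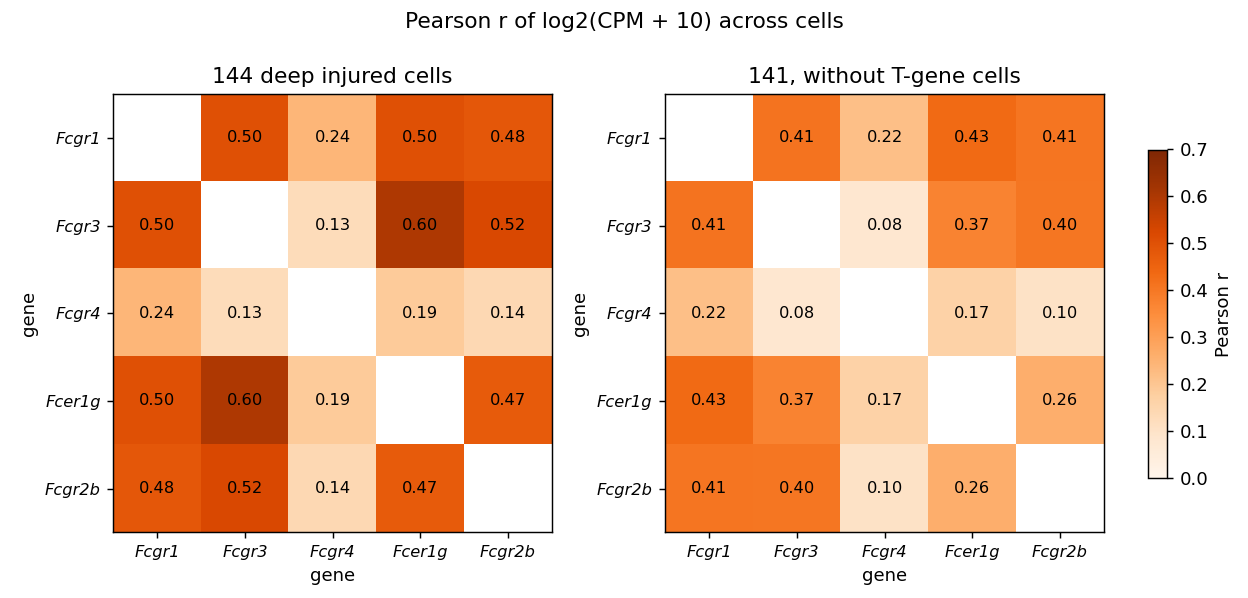
Pearson's r of log2(CPM + 10) between the 5 genes over deep injured cells, for all 144 cells (left) and the 141 without T-gene cells (right); darker is higher, up to 0.7. Fcgr1, Fcgr2b, Fcgr3 and Fcer1g form pairs at 0.26 to 0.43 without the T-gene cells, and Fcgr4 stays at 0.22 or less.

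Signalling genes downstream of the receptors, from a list of kinases, adaptors and small GTPases, were called in both directions. Of 26 listed, 25 were seen in enough cells. The rule was passed upward by 7, downward by 7 and neither way by 11. Over all compared genes 32.8% passed upward and 21.8% downward. The median log2 ratio of the list was -0.02, beside 0.17 over all compared genes. Listed genes needed UMIs in 5% of a group's cells and the genes set beside them 10%. The sets are thus filtered unlike, in every class and in the lists below. In deep cells 11 were called higher and 6 lower, beside 57.7% and 21.1% of all compared genes. Without the haemoglobin-rich cell it was 7 and 8, beside 53.8% and 28.9%. In Malat1-rich cells it was 8 and 9, beside 25.4% and 46.0%. In Malat1-poor cells it was 7 and 1 of 12 measured, beside 32.7% and 30.6%. Apart from Tyrobp, with 82 uninjured UMIs, the higher calls there rested on 0 to 3 uninjured UMIs each, so they are not read as an excess. Tyrobp was 3.0-fold higher in the injured library (2.55 to 3.55), with 18640 and 147 UMIs. Syk, the kinase recruited by the ITAM, had a ratio of 2.02 (0.683 to 9.86) on 3 uninjured UMIs. Of the Src-family kinases, which phosphorylate the ITAM, Lyn had a ratio of 1.20 (0.742 to 2.06) and Fgr a ratio of 4.59 (0.814 to 182) on 1 uninjured UMI. Card9, an adaptor toward NF-kB, was at 24.6 against 68.6 CPM, 2.79-fold lower with an interval from 0.997 to 6.30. Lyn was named after its value was seen.

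The enzymes and adaptors of inhibitory signalling were also called in both directions. Of 10 listed, 9 were measured; 1 was called higher and 3 lower, 5 passed in neither direction, beside the same 32.8% and 21.8% over all genes, and their log2 ratios had a median of -0.33. In deep cells 3 were called higher and 2 lower of 10, beside 57.7% and 21.1% of all compared genes. In Malat1-rich cells it was 0 and 2 of 8, beside 25.4% and 46.0%. In Malat1-poor cells it was 3 and 1 of 4, beside 32.7% and 30.6%, and the 3 higher calls rested on 1 to 3 uninjured UMIs each. Inpp5d, encoding the phosphatase SHIP1 that the ITIM recruits, was at 135 CPM after injury against 171 CPM, a ratio of 0.786 (0.472 to 1.41). Ptpn6, encoding SHP-1, had a ratio of 1.27 (0.723 to 2.47). Cblb, a ubiquitin ligase that dampens receptor signalling, was 8.18-fold lower (2.79 to 19.9), on 31 and 6 UMIs. Ptpn11 was 2.15-fold lower (0.773 to 4.82), Dok3 2.01-fold lower (0.404 to 6.16) and Dok1 had a ratio of 2.46 (0.432 to 98.1), all with intervals that include 1.

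Other Fc-binding receptors were few. Of 12 listed, 2 were measured. Fcrls, an Fc receptor-like gene of microglia, was at 135 and 34.3 CPM, 3.94-fold higher (1.34 to 19.1) on 3 uninjured UMIs, and Fcgrt, the neonatal receptor that recycles IgG, had a ratio of 1.18 (0.616 to 2.60). Of 12 immunoglobulin genes, 1 was measured. Of the IgG heavy chain genes, whose products are the ligands of these receptors, Ighg1, Ighg2c and Ighg3 were at 0 in both libraries and Ighg2b had 2 injured UMIs. Ighm, which encodes the heavy chain of IgM, was at 30.8 and 103 CPM, 3.34-fold lower (1.49 to 6.56) on 114 and 9 UMIs. Antibody deposited in the nerve from blood would leave no UMIs and was not measured.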

How the data were processed

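The deposited table holds UMI counts, whole numbers without normalization, for each gene in each cell, and its second line names the condition of the cell. The build was mm10, and Cell Ranger 1.3, Seurat 4.0.3 and bcl2fastq 2.17.1.14 are named, per the submitters' processing notes. The sources used here do not give the annotation release. Per the series' design text, 778 macrophages and microglia with 200 to 6500 genes were kept, and the table holds 778 cells and 0 outside those limits. Of its 31053 gene rows, 26 carry names turned into dates and were left out of comparisons.

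UMIs were summed per library or class and scaled to CPM, with exact Poisson (levels), Clopper-Pearson (shares) and conditional binomial (ratios) 95% intervals, computed with scipy 1.17.1, numpy 2.4.6 and pandas 2.3.3 (Python 3.11.15); figures used matplotlib 3.10.9. To be compared, a gene needed UMIs in 10% or more of a group's cells (5% for partner lists), and calls used 1.5-fold after adding 10 CPM. No doublet caller was run. The rule was tested on simulated data for injured against uninjured cells, with 200 of 4021 genes changed among genes of at least 10 expected uninjured UMIs: it called 92% of genes raised 2-fold, 80% lowered to 0.5 and 100% changed 4-fold either way. Simulated counts were Poisson draws, so clumping in few cells is not covered.

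The 5 members, the depth and Malat1 classes, the gene lists and the tests were chosen with earlier results of these data known. Named genes were the 5 members, up to 4 called genes per partner group with the largest log2 ratio, Inpp5d, Ptpn6, Syk and Tyrobp, and the 5 genes with highest r to each member; others are named as chosen later or as markers. A few genes chosen by this rule are not reported here. Alternatives were other pseudocounts and filters, equal weights, thinning to 500 UMIs, cells under 5000 UMIs, other class divides, and cells left out; leaving out T-gene, B-gene and, in deep cells, the haemoglobin-rich cell was chosen after seeing the data.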

Additional observations from a re-analysis of the deposited data

How the results depend on the processing

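Of 87 alternatives, 73 stayed within their bounds. The bound was the counting interval of the main value, or 1.5-fold for the numbers of genes called. For Fcgr4 the interval of the ratio ran from 0.470 to 107, so its levels could hardly leave it. Of the 50 on the levels of the 5 genes, 38 changed neither sign nor call, 3 changed the sign and 10 the call. Without the highest cell of each library Fcgr1 was at 0.03 and Fcgr3 at 0.08. Equal weights gave Fcgr2b 0.52 and cells under 5000 UMIs 0.26, thinning gave Fcgr1 -0.79, and 50 CPM added gave Fcgr4 0.39. No paired analysis was possible because each condition is 1 library. Drawing 500 UMIs per cell reversed the log2 ratio of Fcgr2b to -0.048, on 6 uninjured UMIs, and moved Fcgr3 to -0.64, on 25 uninjured UMIs where 17.0 were the average of such draws, and Fcer1g to 0.58. Equal weights moved Fcgr1 to -0.82. Cells under 5000 UMIs gave Fcgr1 -0.91 and Fcer1g 0.55. The injured Fcgr2b share became 23.7% with equal weights, 22.5% thinned, 23.2% under 5000 UMIs and 32.8% with Fcgr3 as the only activating gene. As values these stayed above every uninjured value in those settings. The injured and uninjured intervals overlapped when thinned, 18.4 to 27.0 against 6.19 to 32.0, and under 5000 UMIs, 20.1 to 26.6 against 7.92 to 29.3. Without the filter on low values 2982 genes were called higher and 3101 lower, and with 50 CPM added 798 and 583. Apart from what these settings fix by construction (fewer or other cells, more or fewer genes), the cause was not tested. The uninjured counts, 1 to 115 UMIs per gene, limit every ratio.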

Other observations

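Within the 144 deep injured cells, sorted by their share of Malat1 into 3 sets of 48, Fcgr2b took 27.1% (24.7 to 29.6) of receptor UMIs in the lowest set, 25.2% (23.0 to 27.5) in the middle set and 32.6% (29.2 to 36.1) in the highest set. Fcgr2b itself hardly moved, at 321, 327 and 342 CPM, while Fcgr3 was at 637, 738 and 493 CPM and Fcer1g at 2927, 2782 and 2153 CPM. Fcgr4 was at 20.8, 33.9 and 44.3 CPM over the sets, on 93 UMIs in the 144 cells together. The cells of the highest set were shallower, with a median of 12470 UMIs against 24475 and 21362, and that part was not tested.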
